A study of Mus musculus with 4 samples.

Results

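The SMAD and BMP/TGF-beta receptor genes were examined for HOXA5 occupancy in the lung of mouse embryos of embryonic stage E15.5. They are 10 of 21779 protein-coding genes, chosen by pathway and with earlier results of these data known. The BMP branch was taken as Smad1, Smad5, Bmp4, Bmpr1a, Bmpr1b and Bmpr2, and the TGF-beta branch as Smad2, Smad3, Tgfbr1 and Tgfbr2. All embryos carried the Hoxa5FLAG/FLAG genotype, in which both copies of the endogenous gene encode HOXA5 with a FLAG epitope. Chromatin immunoprecipitation followed by sequencing with a FLAG antibody gave 2 HOXA5-FLAG immunoprecipitates, each with 1 peak list, and 2 inputs of the same genotype that were not analysed here. The sample titles read wt, against the tagged genotype in the label, and the replicate 2 list names its peaks by a different replicate number. The labels were followed. Lungs without the tag were not analysed here. Nothing in the labels ties the replicates to separate litters, so the spread between them may be technical.

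BMP and TGF-beta proteins are secreted ligands that bring together type I and type II serine/threonine kinase receptors at the cell surface. The activated type I receptor phosphorylates receptor-regulated SMAD proteins, which join SMAD4 and enter the nucleus as transcription factors. BMP receptors act mainly on SMAD1 and SMAD5, and TGF-beta receptors on SMAD2 and SMAD3. In the developing lung Bmp4 is known as a signal of the distal epithelial tips, TGF-beta signalling shapes the matrix and restrains branching, and Hoxa5 is a gene of the mesenchyme.

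A peak was given to a member when its summit lay inside the gene, or within 100 kb with that member as the nearest protein-coding gene. By this rule 4 of the 10 members had a peak in replicate 1 and 3 had one in replicate 2. The same 3, Bmpr1b, Smad2 and Smad3, had a shared peak, meaning that peaks of both lists overlapped by at least 1 bp. Among all protein-coding genes 10.4% had a replicate 1 peak, 7.58% a replicate 2 peak and 5.97% a shared peak. Smad1, Smad5, Bmp4, Bmpr1a, Bmpr2 and Tgfbr2 had no peak in either list under the rule. The lists hold 4289 peaks in replicate 1 and 2832 in replicate 2, with no read counts, so depth is unknown and an absent peak means that none was called. Peak lists give no expression level, so the tissue label could not be checked with marker genes. All positions are in mm10.

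**Figure D1:**
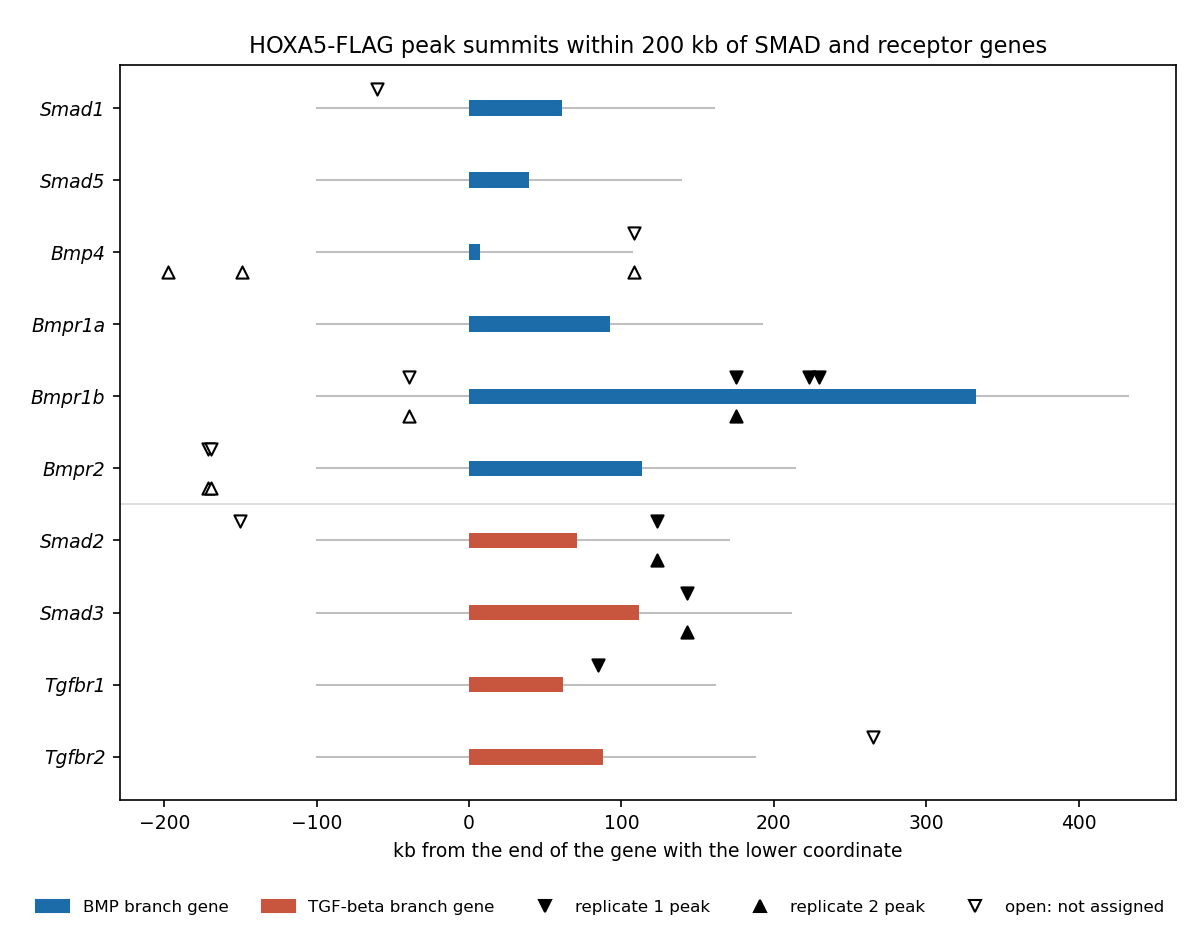
Peak summits within 200 kb of the 10 genes, with distance in kb from the end of each gene that has the lower coordinate. Bars are gene spans, grey lines reach 100 kb to either side, downward triangles are replicate 1, upward triangles are replicate 2, filled ones were assigned to the member and open ones were not. The 3 replicate 1 peaks in Bmpr1b lie inside the gene, the peaks of Smad2, Smad3 and Tgfbr1 lie outside, and the shared peak of Bmp4 falls just past the grey line, with 2 further replicate 2 peaks beyond 100 kb on its other side.

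RefSeq promoter windows (GRCm38.p6) were found for 9 of the 10 members, 14 windows in all, and Smad2 was not matched. A peak of either list overlapped the 250 bases before the start in 0 of these 14 windows and in 132 of all 32851 (0.402%), so a window without a peak is no particular feature of these genes. The nearest summit to a start lay 29.7 kb away at Bmpr1b, 31.5 kb at Smad3, 51.8 kb at Tgfbr1 and 101.1 kb at Bmp4, while at Smad1, Smad5, Bmpr1a, Bmpr2 and Tgfbr2 it was between 121.8 and 582.8 kb away.

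The 250 bases before the start are shown for the promoters nearest to the peaks of Bmpr1b, Smad3 and Tgfbr1, and for Bmp4, the ligand gene of the BMP branch. Each reads 5′ to 3′ along the gene, and capitals mark TAAT, the core recognised by many homeodomain proteins, on either strand (ATTA is TAAT on the other strand). They lie at chr3:141982265-141982514 (minus strand), chr9:63757995-63758244 (minus strand), chr4:47385966-47386215 (plus strand) and chr14:46390670-46390919 (minus strand).
Bmpr1b: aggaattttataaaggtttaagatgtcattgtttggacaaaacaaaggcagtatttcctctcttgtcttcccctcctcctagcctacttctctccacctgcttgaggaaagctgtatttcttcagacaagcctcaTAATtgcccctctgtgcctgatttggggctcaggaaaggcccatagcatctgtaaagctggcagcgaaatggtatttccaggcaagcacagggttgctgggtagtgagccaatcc
Smad3: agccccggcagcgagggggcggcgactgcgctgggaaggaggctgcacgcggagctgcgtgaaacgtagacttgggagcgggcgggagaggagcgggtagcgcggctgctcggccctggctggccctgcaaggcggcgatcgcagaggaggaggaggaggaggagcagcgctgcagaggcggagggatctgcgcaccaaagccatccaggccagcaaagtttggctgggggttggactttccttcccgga
Tgfbr1: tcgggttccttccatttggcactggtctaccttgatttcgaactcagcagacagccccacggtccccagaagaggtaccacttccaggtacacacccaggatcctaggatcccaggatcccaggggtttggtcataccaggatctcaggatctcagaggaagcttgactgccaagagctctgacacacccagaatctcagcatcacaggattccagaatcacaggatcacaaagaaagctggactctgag
Bmp4: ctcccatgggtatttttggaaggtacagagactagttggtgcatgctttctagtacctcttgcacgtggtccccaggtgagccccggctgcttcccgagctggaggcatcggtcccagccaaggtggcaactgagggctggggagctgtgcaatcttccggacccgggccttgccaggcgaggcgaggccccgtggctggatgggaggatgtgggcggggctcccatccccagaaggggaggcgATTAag

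TAAT occurred once in the Bmpr1b window and once in the Bmp4 window, and not in those shown for Smad3 and Tgfbr1. Over all member windows it occurred in 5 of 10 windows of the BMP branch, at Smad1, Smad5, Bmp4 and Bmpr1b. In the TGF-beta branch it occurred in 0 of 4 windows, which came from 3 genes since Smad2 had none. Among all 32851 windows of the same length 54.9% held it. The median share of G and C was 63.4% in the BMP windows, 63.8% in the TGF-beta windows and 52.4% over all windows. TAAT has neither letter, and the part of base composition in these counts was not tested. Some windows of one gene overlap, so they are not independent. The composite TGATNNAT, bound by HOX and PBX proteins together, was in 0 of 14 member windows against 7.68% of all windows, and the MEIS sequence TGACAG was in 1 of 14, at another start of Bmpr1b, against 15.9%. The SMAD sequences were searched likewise, with GTCTAGAC in 0 of 14 windows against 0.167% of all, and CAGAC in 5 of 14 against 42.2%. These matches describe letters in windows without a called peak and do not show binding.

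Bmpr1b, which encodes a type I BMP receptor, was the only member with peaks inside the gene. It lies on chromosome 3, 141837135 to 142169585, on the minus strand, and held 3 peaks in replicate 1 and 1 in replicate 2. Of the 2273 coding genes with a replicate 1 peak, 196 (8.62%) had 3 or more. The shared peak spanned 142011789 to 142012247 in replicate 1, with 8.68-fold enrichment and a −log10 q of 55.5, and 142011856 to 142012190 in replicate 2, with 5.17-fold and 23.1. Fold enrichment is the authors' ratio of signal to expected background at the summit, and −log10 q their significance score, where larger is stronger. Both are values of a peak in its own list. The Bmpr1b folds were above those of 92.3% of replicate 1 peaks and 86.2% of replicate 2 peaks, and the summits were 3 bp apart, against a median of 32 bp over the 2175 shared peaks. The summit lay 157.6 kb inside the gene from its upstream end and 29.7 kb upstream of the nearest start in the promoter table. Exons and introns could not be told apart with the gene table used.

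The other Bmpr1b peaks were called in replicate 1 only. One spanned 142059898 to 142060278 with 4.36-fold enrichment and a −log10 q of 14.9, 48.1 kb from the shared summit. The other spanned 142066844 to 142067176 with 6.53-fold and 35.5, a further 6.87 kb away. The 6.53-fold peak was above 85% of replicate 1 peaks by fold. Of the 229 replicate 1 peaks between 6- and 7-fold, 65.9% had a partner in replicate 2, and of the 820 between 4- and 5-fold 42% did. Another shared peak lay 39.6 kb below Bmpr1b (141797342 to 141798030 in replicate 1) and was taken by its neighbour Unc5c, a netrin receptor gene that holds the summit, at 5.27-fold in replicate 1 and 3.44-fold in replicate 2.

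Smad3, which encodes a TGF-beta receptor-regulated SMAD, had the strongest peak of the group in both lists. The gene lies on chromosome 9, 63646766 to 63757994, on the minus strand, and the summit was 31.5 kb upstream of its start. The peak spanned 63789326 to 63789810 with 10.7-fold enrichment and a −log10 q of 87.1 in replicate 1, and 63789390 to 63789712 with 5.38-fold and 28.2 in replicate 2. These folds were rank 218 of 4289 and rank 335 of 2832, and the summits were 4 bp apart. The long noncoding RNA gene Gm39359 lay closer, at 4.56 kb. When all annotated genes could take a peak, this one was no longer counted for Smad3.

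Smad2, the partner of Smad3 in the TGF-beta branch, also had a shared peak but a weak one. The gene lies on chromosome 18, 76241090 to 76311748, and the summit was 52.6 kb past its higher end. The peak (76363835 to 76364615 in replicate 1) reached 2.63-fold with a −log10 q of 8.63 in replicate 1, and 2.15-fold with 4.08 in replicate 2. Of the peaks in each list, only 12.9% in replicate 1 and 6.07% in replicate 2 had a lower fold. The summits of the 2 lists were 49 bp apart, against a median of 32 bp over all shared peaks. With a −log10 q of at least 5 required in both lists, Smad2 had no shared peak.

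Among the TGF-beta receptor genes, Tgfbr1, which encodes the type I receptor, had a peak in replicate 1 alone. The gene lies on chromosome 4, 47353222 to 47414926, on the plus strand, and the peak (47437787 to 47438161) lay 23.1 kb past its downstream end. It had 5.23-fold enrichment and a −log10 q of 24.6, above the fold of 74.8% of the list. Of the 424 replicate 1 peaks between 5- and 6-fold, 50.2% had a partner. The nearest replicate 2 peak was 1914 kb away. Tgfbr2, the type II receptor gene (chromosome 9, 116087695 to 116175363), had none within 100 kb, and its nearest peak was 177.7 kb away in replicate 1.

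**Figure D2:**
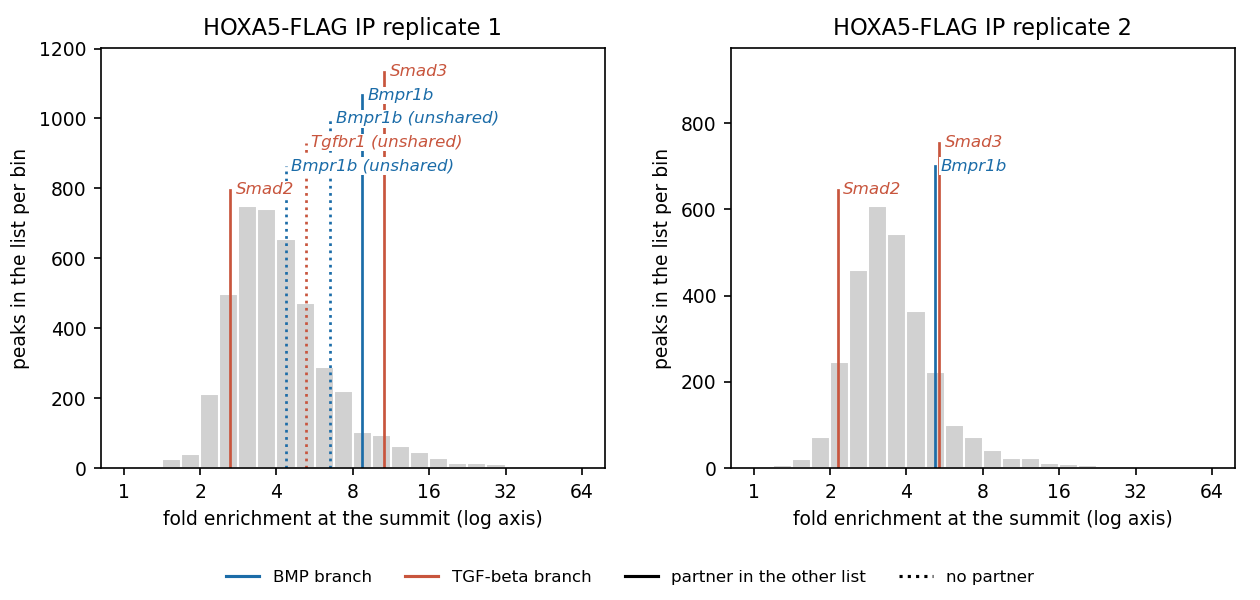
Fold enrichment at the summit on a log axis for all peaks of each list (grey bars, peaks per bin) with the member peaks as lines, blue for the BMP branch and red for the TGF-beta branch, solid with a partner in the other list and dotted without. Line height carries no value. The Smad3 and Bmpr1b shared peaks lie to the right of the bulk in both lists, at 10.7- and 8.68-fold in replicate 1, and Smad2 lies to the left at 2.63-fold.

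**Figure D3:**
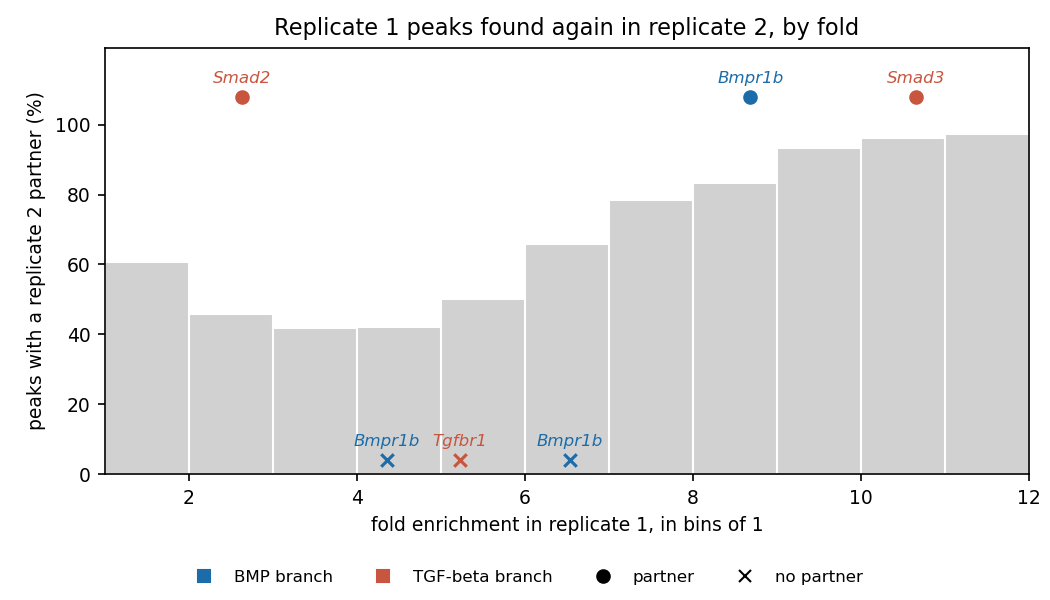
Share of replicate 1 peaks with a partner in replicate 2 (vertical axis, percent) in bins of 1 fold (horizontal axis). Marks give the fold of each member peak, circles above the bars with a partner and crosses at the foot without, and their height carries no value. The share is 41.7% between 3- and 4-fold and 96.2% between 10- and 11-fold, the bin that holds the Smad3 peak.

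The remaining BMP genes had no assigned peak. Bmp4 (chromosome 14, 46383525 to 46390669, minus strand) missed the rule narrowly. A shared peak with Bmp4 as its nearest coding gene (46491630 to 46491987 in replicate 1) had its summit 101.1 kb upstream, 1118 bp past the limit, with 7.01-fold enrichment in replicate 1 (−log10 q 43.0) and 3.65-fold in replicate 2 (−log10 q 10.6). It lay inside the long noncoding RNA gene Gm34756. The farthest peak assigned to a member was that of Smad2, at 52.6 kb. At Smad1 (chromosome 8, 79338395 to 79399428), which encodes a BMP-regulated SMAD, a replicate 1 peak of 5.19-fold lay 60.7 kb away but inside Mmaa, a gene of vitamin B metabolism in mitochondria, and was taken by it. Smad5, the close relative of Smad1 (chromosome 13, 56703010 to 56742378), had its nearest peak at 582.8 kb. Bmpr1a, the other type I BMP receptor gene among the members (chromosome 14, 34411061 to 34503336), had its nearest peak at 205.2 kb. Bmpr2, the type II BMP receptor gene among the members (chromosome 1, 59764279 to 59878081), had its nearest at 169.5 kb.

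Set side by side, 1 of 6 BMP genes and 3 of 4 TGF-beta genes had a replicate 1 peak, against 10.4% of all coding genes. A shared peak was found at 1 of 6 BMP genes and 2 of 4 TGF-beta genes, against 5.97% of all coding genes. The number of replicate 1 peaks was 3 in each branch, because all 3 of the BMP branch were in Bmpr1b. Of these, 1 in the BMP branch and 2 in the TGF-beta branch had a partner, against 51.2% of all replicate 1 peaks. The counts of the 2 branches depended on the settings. At 10 kb 1 BMP gene and 0 TGF-beta genes had a shared peak (3.95% of all coding genes). At 150 kb, a limit chosen after seeing the data, it was 2 of 6 BMP genes and 2 of 4 TGF-beta genes (6.42% of all coding genes). With a −log10 q of at least 5 in both lists it was 1 of 6 and 1 of 4 (4.96% of all coding genes). The same counts were found when all annotated genes could take a peak (4.5% of all coding genes). The sequence that the rule would give to the genes was 1.09 Mb for the BMP branch and 0.729 Mb for the TGF-beta branch. Shared peaks per Mb of it were 0.917 in the BMP branch (95% exact Poisson interval 0.0232 to 5.11) and 2.74 in the TGF-beta branch (0.332 to 9.91). The intervals cover counting error only and rest on 1 and 2 peaks, so no conclusion on a difference between the branches was drawn from them. No test was made, since the genes of a branch are not replicates and were chosen with results known.

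Most members lie in wide surroundings, which bears on how many peaks each can receive. The sequence given to a member was between 75.0 kb at Smad5 and 368.6 kb at Bmpr1b, more than for 64.9% to 97% of all coding genes. Over the 10 genes there were 1.65 shared peaks per Mb (0.340 to 4.82), and 0.827 over all coding genes and their flanks. The interval holds the value of 0.827 but covers counting error only, and a difference was not tested. The part of gene surroundings in the members' counts was not tested further.

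**Figure D4:**
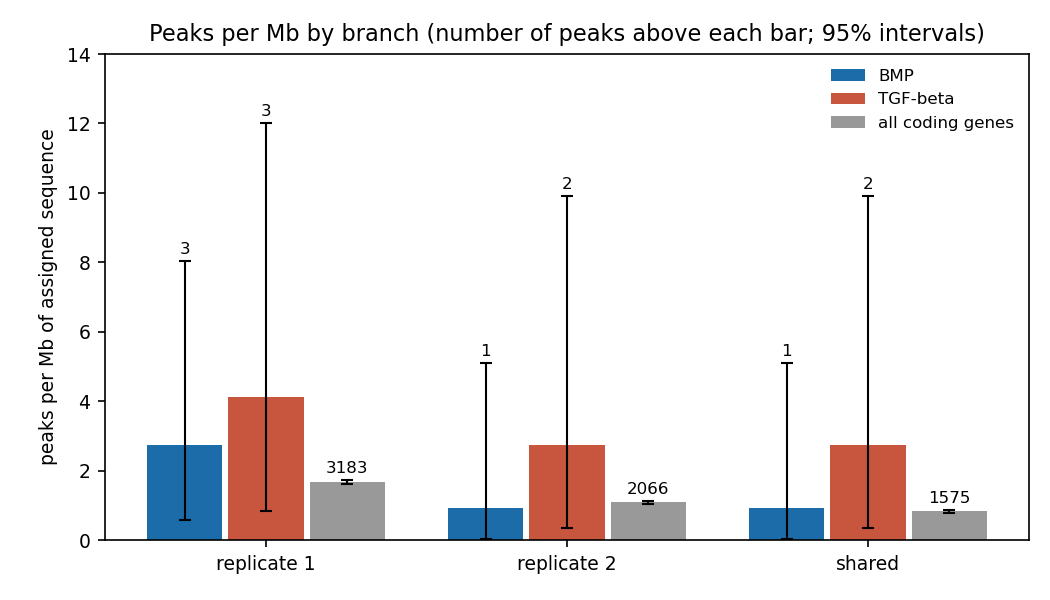
Peaks per Mb of assigned sequence (vertical axis) in replicate 1, in replicate 2 and shared, for the BMP branch, the TGF-beta branch and all coding genes, with the number of peaks above each bar and 95% exact Poisson intervals as error bars. The branch bars for shared peaks, 0.917 and 2.74, rest on 1 and 2 peaks, and their intervals take in the value of 0.827 for all coding genes. The intervals cover counting error only, and no difference was tested.

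Of 46 further genes of the pathway, 4 (8.7%) had a shared peak, 9 (19.6%) a replicate 1 peak and 5 (10.9%) a replicate 2 peak, against 5.97%, 10.4% and 7.58% of all coding genes. These genes were also chosen with earlier results of these data known. Among 13 inhibitors and antagonists 2 had a shared peak. Bmper, which encodes a secreted BMP-binding regulator, had 2 shared peaks on chromosome 9. One was inside the gene (23394988 to 23395503) and reached 12.4-fold in replicate 1 against 5.60-fold in replicate 2, while the other 96.4 kb away (23581386 to 23581881) reached 8.75- and 4.36-fold. The Bmper peak inside the gene was above the fold of 96.7% of replicate 1 peaks and exceeded the fold of every member peak in both lists. Smurf2, which encodes a ubiquitin ligase acting on SMADs and receptors, had one 25.7 kb away on chromosome 11 with 4.67- and 5.60-fold, and this peak was 5555 bp long in replicate 1 against a median of 414 bp.

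Among 7 target genes Id4, an inhibitor of bHLH transcription factors, had a shared peak 33.2 kb away (chromosome 13, 48227757 to 48228116) with 9.90- and 6.52-fold enrichment. Id2 of the same family had a replicate 1 peak at 2.67 kb, with 3.42-fold. Among 4 other SMAD genes the common partner Smad4 held one of 2.97- and 2.75-fold, whose −log10 q values were 4.86 and 5.35 and which was 1467 bp long in replicate 1. None of 13 ligand genes and none of 9 receptor and coreceptor genes had a shared peak. Since only 5.97% of all coding genes had one, its absence from lists this short is no particular feature of these genes. Bmp3 and Bmp7 among the ligands, and Tgfbr3 and Rgmb among the coreceptors, had a replicate 1 peak of 3.33- to 4.61-fold without a partner. Bambi, a decoy receptor gene, had a replicate 2 peak of 2.49-fold without one.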

How the data were processed

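Peak lists of 2 HOXA5-FLAG immunoprecipitates were used. Per the submitters' processing notes, the tools included Bowtie2 2.5.2, SAMtools 1.18, bedtools 2.31.0 and MACS3 3.0.1 on mm10. Their settings, the control and any filters were not given in the sources used here. The authors deposited 1 list per replicate, so peaks were not called on pooled reads. The deposited fold enrichment (a ratio) and −log10 q (all above 2) are the authors' values at each summit. The deposited −log10 p and score were not used. Depth is unknown.

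Shared peaks were overlaps of at least 1 bp, with chains merged and placed at the replicate 1 summit of highest −log10 q. Genes came from RefSeq GRCm38.p6 (mm10), of which 49603 genes were used after leaving out 340 that start before 3 Mb (Y excepted), taken as scaffold positions. The scripts ran on Python 3.11.15 and SciPy 1.17.1. Their steps for assigning and sharing peaks recovered all known answers on simulated data. The simulation held no overlapping genes, no competing neighbours and no chains of peaks, and other steps were not simulated. Members and pathway lists were chosen with earlier results of these data known. All 10 members are named, with pathway genes that had a peak and neighbours that took a peak within 100 kb of a member. Pathway genes with an unshared peak were named after their values were seen. The planned motif search at summits was not run for want of a genome sequence, and motifs were searched in promoter windows instead. Alternatives changed the overlap, −log10 q, length, distance limit, competing genes and replicates.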

Additional observations from a re-analysis of the deposited data

How the results depend on the processing

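Reciprocal overlap of 50%, summits within 100 bp and peaks of at most 1000 bp left all counts over members as reported. Among all coding genes 5.49%, 4.54% and 4.68% then had a shared peak, against 5.97% in the main setting. With the length limit 9.48% had a replicate 1 peak and 6.46% a replicate 2 peak. A distance limit of 10 kb left 1 member with a shared peak and 1 shared peak, 1 member with a replicate 1 peak and 1 with a replicate 2 peak, all Bmpr1b, and 0 TGF-beta genes with a shared peak; a limit of 1 kb gave the same values (1, 1, 1, 1 and 0). Among all coding genes 3.95% then had a shared peak, 7.11% a replicate 1 peak and 5.12% a replicate 2 peak with the 10 kb limit, and 3.32%, 6.04% and 4.29% with the 1 kb limit. When all annotated genes competed, 1 TGF-beta gene had a shared peak and 2 members had a replicate 1 peak, since the peaks of Smad3 and Tgfbr1 went to a long noncoding RNA gene and a pseudogene; of all coding genes 4.5% then had a shared peak and 7.92% a replicate 1 peak. With all annotated genes competing, 2 members had a shared peak, with 2 shared peaks, and 2 had a replicate 2 peak (5.77% of all coding genes). A −log10 q of at least 5 left 2 members with a shared peak and 2 shared peaks, against 4.96% of all coding genes. Of the TGF-beta genes 1 was left, Smad3. With this limit 2 members had a replicate 2 peak, against 6.29% of all coding genes. A limit of 150 kb, chosen after seeing the data, gave 2 BMP genes, as Bmp4 gained a shared peak. It gave 4 members with a shared peak and 4 shared peaks, against 6.42% of all coding genes. A replicate 1 peak was then at 5 members (11% of all coding genes) and a replicate 2 peak at 4 (8.1%). With 1 replicate alone, members with a peak ranged from 3 to 4 and their peaks from 3 to 6. The count of 6 was without replicate 2. BMP genes stayed at 1 and TGF-beta genes ranged from 2 to 3. Of all coding genes 7.58% had a peak without replicate 1 and 10.4% without replicate 2. These values repeat the counts of each list given above. No paired analysis was possible because only the immunoprecipitates had lists here and no result comes from a test. Depth is unknown, so its part in these counts was not tested.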

Other observations

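Between 100 and 200 kb from the members lay 10 further peaks, with the 2 lists counted separately, so that a shared peak counts in each list. Around Bmp4 these were the shared peak given above and 2 peaks of replicate 2 alone on the other side of the gene, at 149.1 kb with 3.20-fold enrichment and at 197.6 kb with 2.36-fold, both with Bmp4 as the nearest coding gene. Around Bmpr2 a pair of shared peaks lay inside Gm973, a predicted coding gene, at 169.5 and 171.2 kb, with 6.53- and 6.19-fold enrichment in replicate 1 and 3.83- and 4.71-fold in replicate 2. Tgfbr2 had a replicate 1 peak of 3.66-fold at 177.7 kb, nearest to the long noncoding RNA gene D730003K21Rik. A replicate 1 peak of 3.87-fold at 150.5 kb from Smad2 lay inside Zbtb7c. These peaks were looked at after the rule for members had been applied.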
